A study of Caenorhabditis elegans with 4 samples.

Results

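The dod genes ("downstream of DAF-16") and cld-1, the gene directly beside dod-21, were followed in whole adult Caenorhabditis elegans that lacked the germ granule gene eggd-1. They comprised dod-3, dod-17, dod-19, dod-20, dod-21, dod-22, dod-23, dod-24 and cld-1, and were found by symbol, cld-1 also by its identifier, as 9 of the 47115 rows of the count table of the series. The pair dod-21 and cld-1 was selected on its measured difference between eggd-1 and control animals and the other genes by their name, with their values known, so this difference is given for all 9 as a description without a test. Of the 10 dod genes in the table, dod-6 and dod-18 were not in the chosen set and are used for comparison.

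RNA of whole hermaphrodite adults, grown from synchronized larvae at 20 °C on OP50 bacteria, was sequenced in 2 eggd-1 libraries and 2 control libraries after removal of ribosomal RNA. The eggd-1 animals carried a null mutation, which the study describes as a deletion of the whole open reading frame, and EGGD-1 is a protein that anchors germ granules to germ cell nuclei. The control animals carried pgl-1::RFP, a red fluorescent tag on a core protein of the germ granules. The genotype label of the eggd-1 libraries does not list this tag, so loss of eggd-1 and a difference in the tag or the strain background cannot be told apart. The titles call the libraries of a group sequencing replicates, whereas the study describes biological replicates, so the p-values measure the spread between these 4 libraries only.

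In the worm, signalling through the insulin receptor DAF-2 keeps the FOXO transcription factor DAF-16 out of the nucleus. The dod genes were named for their response to this pathway in animals with reduced daf-2 activity: dod-3 and dod-6 belong to the genes that are raised there, while dod-17, dod-19, dod-20, dod-21, dod-22, dod-23 and dod-24 belong to those that are lowered. The proteins of dod-17, dod-21, dod-22, dod-24 and cld-1 carry a CUB-like domain, and dod-22 and dod-24 are known as intestinal genes of the response to bacterial infection.

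The summed counts were 18707358 and 17603513 in the eggd-1 libraries, against 20223368 and 30812591 in the control libraries. The deleted gene itself, listed as mip-1, had 6 and 3 counts in the eggd-1 libraries, against 2074 and 3177 in the control libraries. An adjusted p was obtained for 16773 rows, and 39.1% of them passed 0.05 in either direction, 18.6% as higher and 20.4% as lower in eggd-1. With a change of at least 4-fold required as well, 6.43% passed, 5.67% as higher and 0.763% as lower. The groups did not overlap in 77.3% of these rows, so separation of 2 libraries from 2 was common in this table. The summed markers of all 8 tissues and cell types examined were higher in both eggd-1 libraries than in both control libraries. Among them was the intestine, whose 9 markers summed to 117251 and 116596 normalized counts in eggd-1, against 77135 and 90453 in the control. Most of this sum was asp-1, with 77958 and 80186 in eggd-1, against 52450 and 61924 in the control. Of the 9 genes, 5 passed 0.05 as higher and 1, act-5, as lower (log2 fold change -0.41). The log2 fold changes of elt-2, elt-7 and vha-6 were 0.10, -0.18 and 0.07. The planned intestinal marker opt-2 was not among the 9. In whole animals, a change in the number of cells of a type and a change in RNA per cell cannot be told apart.

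Normalized counts are the deposited counts divided by the size factor of each library. On this scale the 9 genes were of 3 kinds: dod-21 and cld-1 were about 26-fold lower in eggd-1, the remaining genes differed by 2.45-fold or less in either direction, and dod-20 was nearly silent in all libraries. The groups did not overlap at any of the 9 genes, as in 77.3% of the table. A total of 6 genes had a log2 fold change below 0 and 3 above 0, with a median of -0.34, against 0.00 over all rows tested. An adjusted p was obtained for 8 of the 9, all but dod-20, and by the call rule without a fold limit 1 was higher (18.6% of the table) and 5 were lower (20.4%), against 39.1% of the table in either direction. With the 4-fold limit, 2 of the 9 were called (6.43% of the table), both lower (0.763%). Since the choice of genes used this contrast, nothing is read from these counts.

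**Figure D1:**
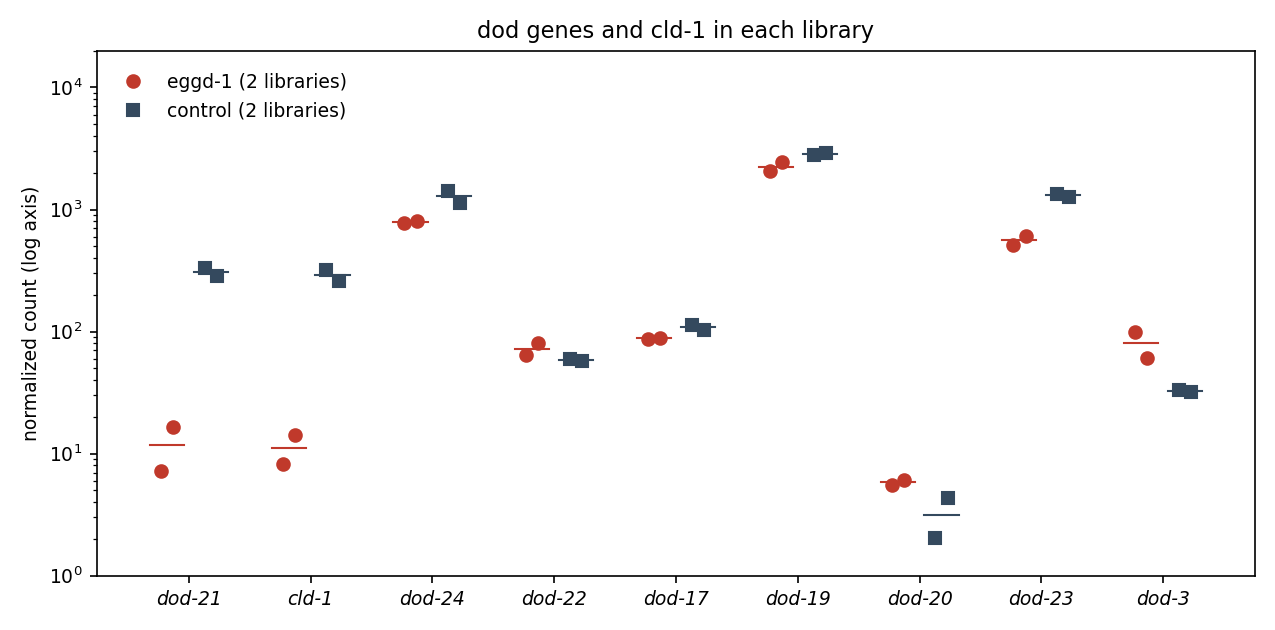
Normalized count of each dod gene and cld-1 in the 2 eggd-1 libraries (red circles) and the 2 control libraries (blue squares) on a log axis, with a bar at each group mean. The eggd-1 libraries of dod-21 and cld-1 lie between 7.18 and 16.5, those of the control between 259 and 333, and no gene has overlapping groups.

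The gene dod-21 (C32H11.10, WBGene00007873) encodes a CUB-like protein and lies on the plus strand of chromosome IV from 12936738 to 12937988 (WBcel235). It had 7.18 and 16.5 normalized counts in the eggd-1 libraries, against 333 and 284 in the control libraries. Both eggd-1 libraries were therefore far below both control libraries, and the spread within a group was small beside the gap between them. The group means were 11.8 ± 6.60 in eggd-1 and 308 ± 34.9 in the control (SD, n = 2 each), which is 26-fold lower in eggd-1 and a log2 fold change of -4.72 (SE 0.41). Underneath were 6.5 and 13.5 deposited counts in eggd-1, against 329 and 397 in the control, so the eggd-1 level rests on few reads.

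The neighbour cld-1 (C32H11.9, WBGene00007872), named for the same domain, lies on the minus strand from 12935011 to 12936271. The starts of the 2 genes face each other across 466 bases. It had 8.29 and 14.1 normalized counts in the eggd-1 libraries, against 322 and 259 in the control libraries. The order of the 4 libraries was the same as at dod-21, with eggd-1 replicate 1 lowest and control replicate 1 highest. The means were 11.2 ± 4.09 in eggd-1 and 291 ± 44.2 in the control (SD, n = 2 each), with a log2 fold change of -4.64 (SE 0.41).

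The values of dod-21 and cld-1 are not fully separate measurements. Reads that map to several places were divided among them, and in both eggd-1 libraries each gene had a fractional count whose sum with the other was whole. The summed counts were 14 and 25 in eggd-1, against 647 and 760 in the control. Summed and normalized, the pair had 15.5 and 30.6 in the eggd-1 libraries, against 655 and 543 in the control libraries. The difference of the pair was the same size as that of each gene, with a log2 fold change of -4.72 (SE 0.31), so its size does not depend on how reads were divided between them. The tagged gene pgl-1 lies on the same chromosome, 5.96 Mb from dod-21. Its normalized counts were 14549 and 16386 in eggd-1, against 10640 and 10904 in the control (log2 fold change 0.52, SE 0.12, adjusted p = 1.25e-04 in DESeq2). A part of the tag or the strain background in the values of the pair was not tested and cannot be told apart from loss of eggd-1.

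The genes on either side of the pair had few reads and the other direction. C32H11.8 lies 239 bases from cld-1 and C32H11.11 lies 224 bases from dod-21, and both were looked up after the values of the pair had been seen. Each had 8.25 and 3.67 counts in the eggd-1 libraries, against 0.5 and 0.5 in the control libraries. The 2 genes share the same fractional values in all 4 libraries, which is how reads divided equally between near-identical genes appear, and neither received an adjusted p.

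The gene dod-24 (C32H11.12, WBGene00007875), an intestinal immune gene of the CUB-like group, has its lower-numbered end 3.37 kb from that of dod-21 and occupies 12940106 to 12941354 on the minus strand. It had 772 and 801 normalized counts in the eggd-1 libraries, against 1424 and 1137 in the control libraries. The eggd-1 libraries were close together and below both control libraries, which differed from each other by more than those of eggd-1 did. Its means were 787 ± 20.5 in eggd-1 and 1280 ± 203 in the control (SD, n = 2 each), 1.63-fold lower in eggd-1 with a log2 fold change of -0.70 (SE 0.16). It was thus lower like the pair, with a difference much smaller on the log2 scale, although it lies in the same small stretch of the chromosome. Beyond it, dct-19 had no counts in any library.

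The gene dod-22 (F55G11.5, WBGene00010125), the other immune gene of the group, occupies 12965374 to 12967392 on the plus strand of chromosome IV. It had 64.1 and 80.7 normalized counts in the eggd-1 libraries, against 59.7 and 57.2 in the control libraries. The eggd-1 libraries lay above those of the control, and the log2 fold change of 0.31 (SE 0.38) was smaller than its error.

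The gene dod-17 (K10D11.1, WBGene00010745), the last of the chosen genes in the stretch, occupies 12976303 to 12978343 on the plus strand. Which of the other genes in the stretch carry the CUB-like domain was not examined. It had 87.3 and 88.7 normalized counts in the eggd-1 libraries, against 114 and 103 in the control libraries. The eggd-1 libraries were lower, with a log2 fold change of -0.30 (SE 0.31) that was also smaller than its error. The 5 genes on chromosome IV thus spanned 43.3 kb and ran from 26-fold lower to slightly higher in eggd-1.

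The gene dod-19 (ZK6.10, WBGene00022644) occupies 411782 to 414759 on the minus strand of chromosome V. It was the most abundant of the 9 genes per length, with 2058 and 2444 normalized counts in the eggd-1 libraries, against 2792 and 2906 in the control libraries. The eggd-1 libraries were lower, and differed more from each other than the control libraries did. The means were 2251 ± 273 in eggd-1 and 2849 ± 80.3 in the control (SD, n = 2 each), with a log2 fold change of -0.34 (SE 0.14).

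The gene dod-20 (B0554.6, WBGene00015259) has its lower-numbered end 10.7 kb from that of dod-19 and occupies 422433 to 424177 on the plus strand. It had 5 and 5 counts in the eggd-1 libraries, against 2 and 6 in the control libraries. After normalization these were 5.52 and 6.12 in eggd-1, against 2.02 and 4.29 in the control. At this depth a difference was not detectable: the deposited counts overlap, and the log2 fold change of 0.86 had an SE of 1.36.

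The gene dod-23 (F49E12.2, WBGene00009898) occupies 8398161 to 8399164 on the minus strand of chromosome II. It had 517 and 603 normalized counts in the eggd-1 libraries, against 1352 and 1277 in the control libraries. Both eggd-1 libraries were below both of the control by several times the spread within a group. The means were 560 ± 60.8 in eggd-1 and 1315 ± 53.2 in the control (SD, n = 2 each), 2.35-fold lower in eggd-1 with a log2 fold change of -1.23 (SE 0.16), the largest difference below 0 among the 9 genes after the pair.

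The gene dod-3 (C24B9.9, WBGene00016052), from the group that is raised when daf-2 is reduced, occupies 2730622 to 2731098 on the minus strand of chromosome V. It had 99.4 and 61.2 normalized counts in the eggd-1 libraries, against 33.4 and 32.2 in the control libraries. Both eggd-1 libraries were higher, eggd-1 replicate 1 more so than replicate 2, while the control libraries were close. The means were 80.3 ± 27.1 in eggd-1 and 32.8 ± 0.880 in the control (SD, n = 2 each), 2.45-fold higher in eggd-1 with a log2 fold change of 1.30 (SE 0.43).

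**Figure D2:**
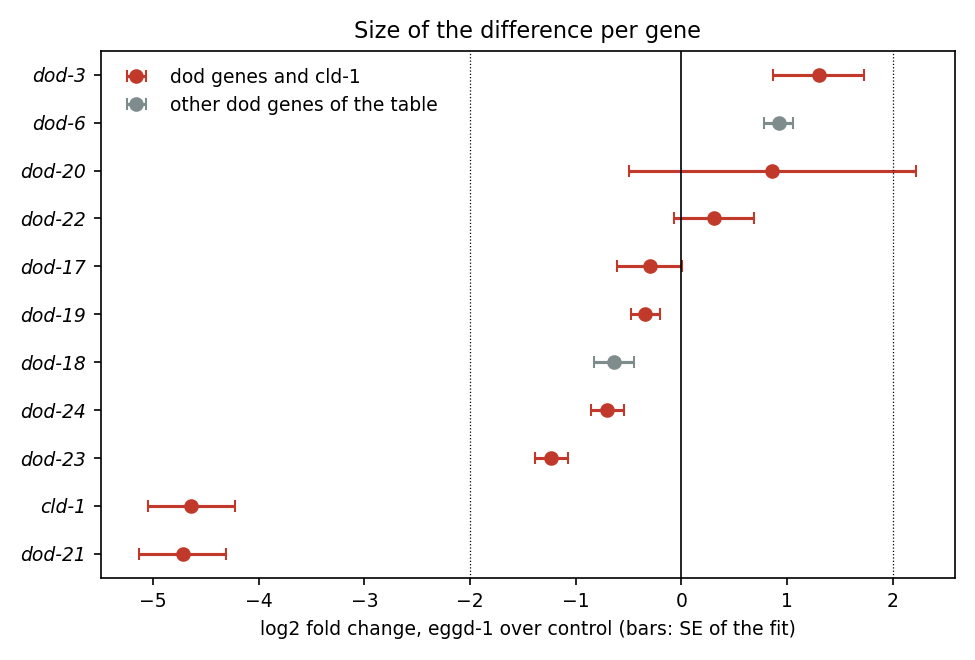
Log2 fold change, eggd-1 over control, of the 9 genes (red) and of the other dod genes in the table, dod-6 and dod-18 (grey), with bars of 1 SE of the fit and dotted lines at a 4-fold difference. dod-21 and cld-1 lie at -4.72 and -4.64, past the 4-fold line, and all others lie between -1.23 and 1.30.

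Of the other dod genes, dod-6 rose and dod-18 fell. The gene dod-6 (WBGene00011869), of the group raised when daf-2 is reduced, had 2068 and 2159 normalized counts in the eggd-1 libraries, against 1194 and 1039 in the control libraries (log2 fold change 0.92, SE 0.14, adjusted p = 1.46e-09 in DESeq2). It was thus higher in both eggd-1 libraries, as dod-3 was. The gene dod-18 (WBGene00008316) had 266 and 272 in eggd-1, against 431 and 407 in the control (log2 fold change -0.64, SE 0.19, adjusted p = 0.00386 in DESeq2). With 1 library left out in turn the call of dod-18 was lost without eggd-1 replicate 1 (adjusted p = 0.138), eggd-1 replicate 2 (0.114) or control replicate 1 (0.071).

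Transcript abundance scaled to library and length (TPM), which corrects for the summed length of the exons, allows levels to be compared between genes. In eggd-1 the mean TPM was highest for dod-19 at 118, followed by dod-23 at 55.4, dod-24 at 49.8, dod-3 at 14, dod-17 at 5.66, dod-22 at 4.23, dod-21 at 0.761, cld-1 at 0.712 and dod-20 at 0.321. In the control it was 127 for dod-19, 111 for dod-23, 69.4 for dod-24, 16.9 for dod-21, 15.8 for cld-1, 5.95 for dod-17, 4.88 for dod-3, 2.91 for dod-22 and 0.147 for dod-20. In both groups dod-21 and cld-1 were the only neighbours in this order whose libraries overlapped. The pair stood below dod-17, dod-3 and dod-22 in eggd-1 and above them in the control. By mean TPM, dod-21 exceeded 26.7% of the genes with a count in eggd-1, against 72.5% in the control.

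The TPM scale moved the median of all rows tested by 0.24 on the log2 scale, and the members moved with it. The ratio of the group means in TPM was -0.07 on the log2 scale at dod-17 and -0.11 at dod-19, where the libraries of both groups overlapped on this scale. At dod-17 the TPM was 5.63 and 5.69 in eggd-1, against 6.46 and 5.44 in the control. At dod-19 it was 108 and 128 in eggd-1, against 129 and 125 in the control. For dod-21 and cld-1 the ratio was -4.48 each, and no member changed sign between the scales.

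All 9 genes were outside the gene classes the deposited table marks, which name targets of small RNA pathways and genes of sperm or oocytes. For scale, 43.9% of the 15314 protein-coding genes with an adjusted p were in no class.

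Genes around the members were then taken from the annotation, as the genes within 50 kb of dod-21 or with the same clone name as a member. Of 83 such rows, 34 received an adjusted p, and 3 rose and 10 fell, which is 38.2%, close to the 39.1% of the whole table. In the window on chromosome IV alone, 3 of 19 rose and 4 fell (36.8%), with a median log2 fold change of 0.38, so this window held changes in both directions. Among the genes of shared clones outside the window, 0 of 15 rose and 6 fell (40%), with a median of -0.49.

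The largest increase among the neighbours with an adjusted p was at irg-6 (C32H11.1), an infection response gene. It had 40.9 and 78.3 normalized counts in the eggd-1 libraries, against 4.05 and 2.14 in the control libraries (log2 fold change 4.32, SE 0.76, adjusted p = 1.73e-07 in DESeq2). It was thus nearly silent in the control and expressed in both eggd-1 libraries, the reverse of dod-21. The gene C32H11.4, between irg-6 and cld-1, also rose, with 275 and 353 in eggd-1, against 51.6 and 70.0 in the control (log2 fold change 2.36, SE 0.27, adjusted p = 3.38e-16). Thus genes of the same clone as dod-21 and cld-1 stood at more than 4-fold on opposite sides.

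Genes directly beside the other members, most of them named after their values were seen, differed in both directions. To the left of dod-22, the infection reporter F55G11.8 fell, with 152 and 163 normalized counts in eggd-1, against 395 and 336 in the control (log2 fold change -1.21, SE 0.22, adjusted p = 5.85e-07 in DESeq2). On the other side of dod-22, at 52 bases, F55G11.2, another reporter, had 154 and 197 in eggd-1, against 160 and 110 in the control, and did not pass (adjusted p = 0.295). Beside dod-17, F55G11.4 rose (log2 fold change 0.72, SE 0.17, adjusted p = 1.04e-04), a call lost without eggd-1 replicate 2 (0.074). On the other side of dod-17, K10D11.2 had 8 and 6 counts in eggd-1, against 1 and 2 in the control, and received no adjusted p. Elsewhere in the window, K08D8.4 had 256 and 194 in eggd-1, against 575 and 627 in the control, and fell (log2 fold change -1.41, SE 0.20, adjusted p = 5.31e-11).

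On chromosome V, irg-8 beside dod-19 had 2826 and 3186 normalized counts in the eggd-1 libraries, against 4528 and 4282 in the control libraries. This infection response gene fell (log2 fold change -0.55, SE 0.13, adjusted p = 1.33e-04 in DESeq2), with the call lost without eggd-1 replicate 1 (adjusted p = 0.108). B0554.5 beside dod-20 had 2 and 2 counts in eggd-1, against 20 and 35 in the control, and fell (log2 fold change -3.29, SE 1.04, adjusted p = 0.00584). At so few reads, that call was lost without either eggd-1 library (adjusted p 0.0993 and 0.0806) and received no adjusted p without either control library. Beside dod-23, skpo-1 did not pass (log2 fold change -0.15, SE 0.12, adjusted p = 0.353), and the genes beside dod-3 had at most 1 count.

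**Figure D3:**
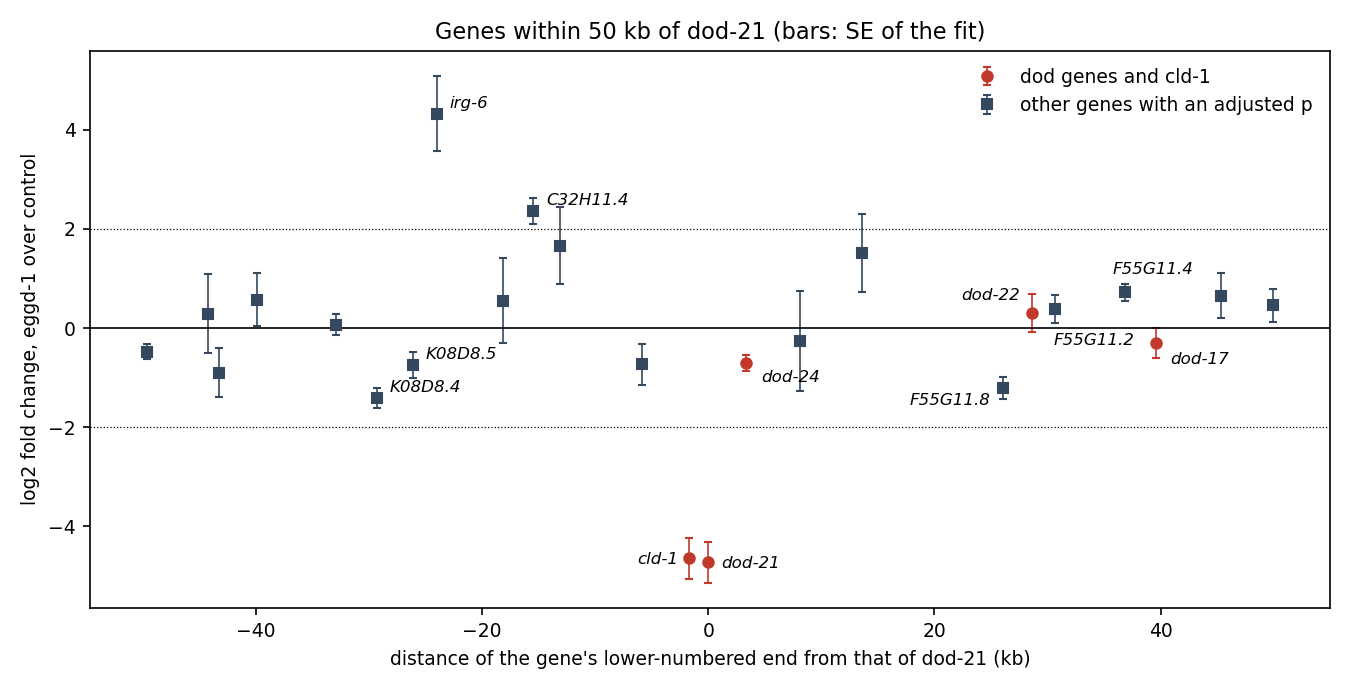
Log2 fold change, eggd-1 over control, of genes within 50 kb of dod-21 that received an adjusted p, against the distance of their lower-numbered end from that of dod-21 in kb, with bars of 1 SE and dotted lines at 4-fold. dod-21 and cld-1 stand at -4.72 and -4.64 between irg-6 at 4.32 and C32H11.4 at 2.36 on one side and dod-24 at -0.70 on the other.

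The genes with the most similar pattern over the 4 libraries were sought among 9499 genes that averaged at least 100 normalized counts, by the Euclidean distance between centred log2 values. The distance between dod-21 and cld-1 was 0.31. The pair was selected on its difference in these libraries and shared divided reads, so this distance is no support for their likeness. The closest other gene was the same for both, C09B8.4 on chromosome X, at 1.16 from dod-21 and 1.08 from cld-1. It had 59.7 and 115 normalized counts in eggd-1, against 1127 and 914 in the control (log2 fold change -3.55, SE 0.47, adjusted p = 1.53e-12 in DESeq2). The claudin-like gene clc-19 came next, at 1.41 from dod-21 and 1.10 from cld-1, with a log2 fold change of -4.52 (SE 0.48, adjusted p = 3.55e-19), and then F22E5.1, at 1.64 and 1.54, with -3.11 (SE 0.38, adjusted p = 2.09e-14). The distance is not scaled and can grow with the size of a difference, so values for dod-24 are not comparable with those for the pair. The nearest genes to dod-24 were ekl-6 at 0.019, Y57A10A.5 at 0.025 and F28B3.6 at 0.0259, with log2 fold changes of -0.72, -0.71 and -0.71. These genes were chosen for their pattern in the same 4 libraries, and their p-values are no support for the likeness.

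Genes of the pathways around the dod genes were examined as lists written from general knowledge. Of 20 genes of the insulin pathway, 4 rose and 1 fell, which is 25%, below the 39.1% of the table, and the median log2 fold change was 0.31. The transcription factor daf-16 rose slightly, with 4197 and 4203 normalized counts in eggd-1, against 2869 and 3585 in the control (log2 fold change 0.38, SE 0.14, adjusted p = 0.0216 in DESeq2), and so did pqm-1, akt-2 and daf-18. The subunit gene aap-1 of the PI3 kinase fell (log2 fold change -0.44, adjusted p = 0.00624), and the receptor daf-2 had 7300 and 7105 in eggd-1, against 7081 and 7144 in the control. None of these calls held with every library left out in turn: without control replicate 1, only aap-1 passed, and without eggd-1 replicate 1 or eggd-1 replicate 2, DESeq2 called 0 of the list, where 1 gene each had an unadjusted p under 0.05.

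Of 20 tested genes known to be raised through DAF-16 when daf-2 is reduced, 10 rose and 4 fell, 70% in all, with a median log2 fold change of 0.57, against 18.6% higher, 20.4% lower and 39.1% in all over the table. Without eggd-1 replicate 1 the higher calls numbered 6, and hil-1 lost its call without any 1 of the 4 libraries. The metallothionein gene mtl-1 had 79.5 and 33.0 normalized counts in eggd-1, against 3.04 and 5.00 in the control (log2 fold change 3.78, with no adjusted p given when eggd-1 replicate 1 was left out). The ferritin gene ftn-1 rose alike, with 79.5 and 47.7 in eggd-1, against 5.06 and 4.29 in the control. The noncoding RNA tts-1, the lysozyme gene lys-7, the glyoxylate cycle gene icl-1 and the water channel gene aqp-1 rose by 2.60, 1.20, 1.00 and 1.42 on the log2 scale. The study reports that tagged DAF-16 did not build up in intestinal nuclei when eggd-1 was depleted, whereas the transcription factor HLH-30 did. Whether DAF-16 had a part in the values given here was not tested.

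The genes of this list that fell were the small heat shock genes hsp-16.1, hsp-16.2, hsp-16.41 and hsp-16.48, with log2 fold changes of -1.95, -2.29, -2.48 and -1.96. For hsp-16.2 the normalized counts were 64.1 and 69.7 in eggd-1, against 366 and 288 in the control. The genes hsp-16.1 and hsp-16.48 have near-identical copies, so their single values are uncertain. The superoxide dismutase gene sod-3, a common reporter of DAF-16, had 76.2 and 72.2 in eggd-1, against 97.2 and 116 in the control, and did not pass (adjusted p = 0.198). Among 5 tested genes known to be lowered when daf-2 is reduced, as most dod genes here are, only the yolk protein gene vit-2 rose (log2 fold change 0.63), and that call was lost without eggd-1 replicate 2 (adjusted p = 0.0905).

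**Figure D4:**
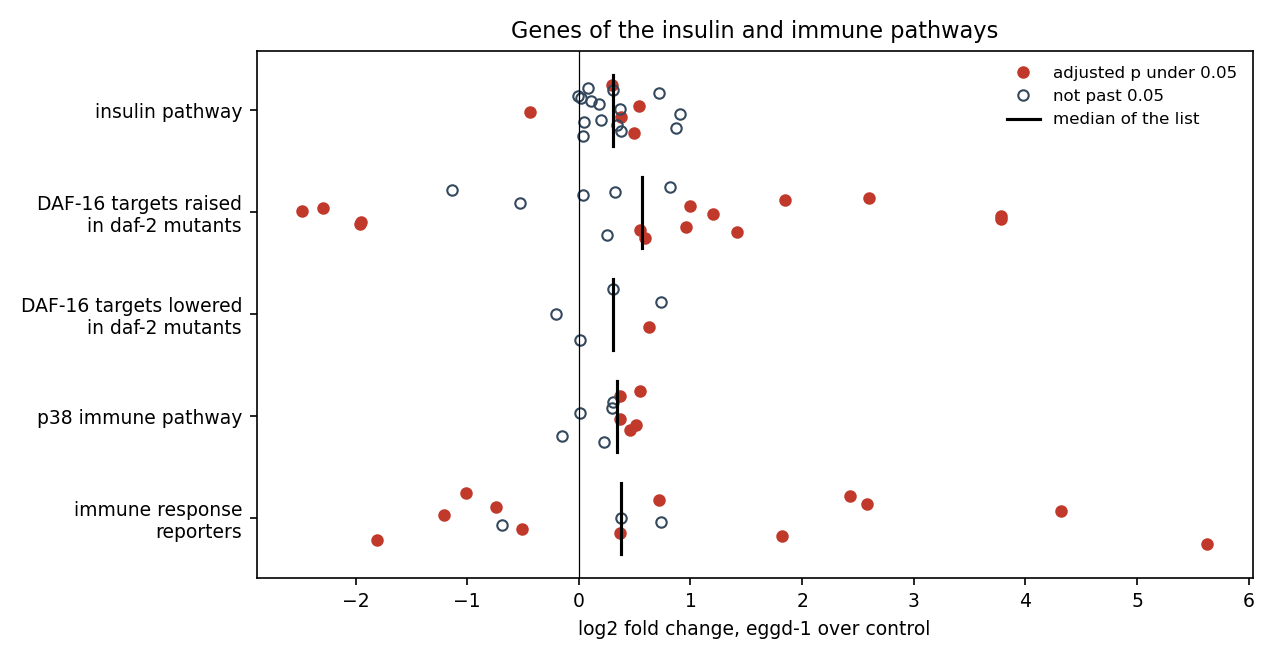
Log2 fold change, eggd-1 over control, of each tested gene in 5 lists of the insulin and immune pathways, with filled points for an adjusted p under 0.05 and a bar at the median of each list. The medians lie between 0.31 and 0.57, and the lists of raised DAF-16 targets and of immune reporters hold calls on both sides of 0.

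The p38 pathway, a conserved kinase cascade of intestinal immunity, had 5 of 10 genes higher, against 18.6% of the table, among them the kinase genes tpa-1, dkf-2 and sek-1 with log2 fold changes of 0.55, 0.46 and 0.37. The kinase pmk-1 itself had 580 and 593 normalized counts in eggd-1, against 490 and 461 in the control, and did not pass (log2 fold change 0.31, adjusted p = 0.141). These calls are small: without eggd-1 replicate 1 or eggd-1 replicate 2, DESeq2 called 0 of the list, where 1 gene each had an unadjusted p under 0.05, and without control replicate 1 it called 2.

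Of 15 reporter genes of the response to infection, the kind to which dod-22 and dod-24 belong, 7 rose and 5 fell. This was 80% in all, with a median log2 fold change of 0.38, against 18.6% higher, 20.4% lower and 39.1% in all over the table. The list includes irg-6, F55G11.8, F55G11.2 and K08D8.5, which were also counted above among the neighbours of dod-21, so the 2 sets are not separate. The lower calls numbered 2 without eggd-1 replicate 1 or eggd-1 replicate 2, and 3 without control replicate 1 or control replicate 2. K08D8.5 (log2 fold change -0.74) was lost in each case (adjusted p 0.0909 to 0.301). The lectin gene clec-60 had 293 and 197 normalized counts in eggd-1, against 2.02 and 7.15 in the control (log2 fold change 5.63). The genes irg-4, clec-67 and irg-5 rose by 2.58, 2.43 and 1.82 on the log2 scale. In the other direction, clec-85 had 329 and 345 in eggd-1, against 661 and 693 in the control (log2 fold change -1.01), and sysm-1 had 11 and 11 in eggd-1, against 37.5 and 40 in the control (log2 fold change -1.81), a call lost without any 1 of the 4 libraries (adjusted p 0.136 to 0.179). The intestinal marker genes moved in the same libraries, 5 of 9 higher and 1 lower (18.6% and 20.4% of the table), with none at 0, and their part in the values of the dod genes was not tested. Over all marker lists, the share called in either direction ran from 40% in the germ line to 100% in the pharynx. Their median log2 fold changes ran from 0.17 in the germ line to 2.16 in sperm. A high share called and a median above 0 were thus not particular to the lists of raised DAF-16 targets and immune genes.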

How the data were processed

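RNA was measured in 4 libraries of whole adults, grouped by their titles. The authors trimmed the reads, aligned them to the WormBase WS279 genome with STAR and counted them by strand with featureCounts, dividing a read with several positions among them, so the deposited values are expected counts that are not normalized. Fractional values occurred in 3341 rows. A further 7 columns matched no sample and were not used.

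Counts were rounded and rows with a count were tested with DESeq2 1.42.0 (R 4.3.3, Wald test, Benjamini-Hochberg over the table, threshold 0.05, with and without a 4-fold limit). The low-count filter of DESeq2 left dod-20 without an adjusted p. edgeR 4.0.16 (quasi-likelihood), other size factors, filters and left-out libraries served as alternatives, and the fits were tested on simulated data. Positions and exon lengths came from Ensembl release 115 (WBcel235), which held 99.979% of the gene identifiers, since the files carry none. TPM was computed here over exon length, and likeness used log2(normalized count + 0.5).

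The members and lists were chosen with earlier results of these data known. Named were all members, genes of the lists, neighbours past 4-fold averaging at least 10 normalized counts, and the 3 most similar genes each for dod-21, cld-1 and dod-24. Other neighbours were named after their values were seen.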

Additional observations from a re-analysis of the deposited data

How the results depend on the processing

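The log2 fold change of each of the 9 genes kept its sign in all alternatives run, which all used the same libraries. The groups overlapped at none of the 9 genes, so leaving out 1 library could hardly reverse a sign. The kept signs are therefore no support for the differences. At dod-17, dod-20 and dod-22 the log2 fold change was smaller than its SE. It ranged from -5.54 to -3.64 at dod-21 and from -5.03 to -3.57 at cld-1, the values nearest 0 coming from shrunken fold changes and the lowest from leaving out eggd-1 replicate 2 at dod-21. It ranged from 0.90 to 1.60 at dod-3 and from 0.18 to 1.51 at dod-20. Adding dod-21 and cld-1 into one row, an alternative chosen after seeing the data, gave -4.72.

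Leaving out 1 library at a time gave 1174 to 2505 genes higher, against 3127 with all libraries, and 1497 to 2896 lower, against 3426. At 4-fold it gave 441 to 716 higher, against 951, and 58 to 102 lower, against 128. It gave 7 to 10 neighbours called, against 13, and from 0 to 4 genes called in the insulin list, 0 to 2 among the lowered DAF-16 targets, 0 to 5 in the p38 list, 10 to 13 among the raised DAF-16 targets, against 14, and 8 to 9 of the immune reporters, against 12. edgeR called 259 genes at least 4-fold lower, 23 neighbours in all and 7 at 4-fold (3 in DESeq2), 8 genes of the insulin list and 2 lowered DAF-16 targets. Shrunken fold changes left 265 genes at least 4-fold higher and 26 lower. The causes were not tested, other than that fewer libraries were used. The call of B0554.5 was lost without each of the 4 libraries, with log2 fold changes of -3.44 to -3.14.

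The deviations of libraries with equal replicate numbers correlated at -0.048 over 15189 genes, so no pairing of the libraries was seen. With 2 libraries per group, this value cannot decide whether equal numbers shared a preparation. With a replicate block, 2530 genes were higher, 2788 lower and 2 genes of the insulin list were called, and dod-21 stood at -4.74. The search for genes whose proteins resemble the members was not run. With 2 libraries per group, the counts of 6.5 to 13.5 at dod-21 and cld-1 in eggd-1 limit how precisely their fold change is known.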
